A study of Saccharomyces cerevisiae with 4 samples.

Results

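The SNZ and SNO genes of Saccharomyces cerevisiae were described in RNA-seq libraries of control and manganese-adapted yeast. The members are the 6 rows of the deposited table whose gene symbol is SNZ1, SNZ2, SNZ3, SNO1, SNO2 or SNO3, out of 7126 features, and all 6 were found once. All samples came from one strain background, CRY, a MATa strain labelled as carrying deletions of ade2, his3, leu2, trp1 and ura3. This label covers the controls too. The 2 control samples were grown in rich glucose medium (YPD) with an estimated 0.0036 mM manganese for 18 h. The 2 manganese-adapted samples were grown in the same medium with MnSO4 added to 2.5 mM for 120 h, and both groups were taken at the stationary stage. Manganese and culture time therefore differ together and cannot be told apart. Whether the replicates are separate cultures is not labelled, and p-values then reflect only how far these samples differ, possibly for technical reasons.

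Snz and Sno proteins work as a pair in making pyridoxal 5'-phosphate, the active form of vitamin B6. Sno is a glutaminase that releases ammonia from glutamine, and Snz is the synthase subunit that builds the vitamin from that ammonia and sugar phosphates. SNZ1 takes its name, from "snooze", from its expression in stationary-phase cells. SNZ2 and SNZ3 lie beside genes of the THI5 family, whose products make the pyrimidine part of thiamine.

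The libraries held 12307870 to 14184276 reads, recovered as whole numbers from the deposited CPM, a read number divided by a scaled library size, and 574 of the 7126 features had no reads. A floor of 3 reads corresponded to 0.212 to 0.237 CPM, which covers counting error only. Of the 5 MATa markers examined, all were detected, with a summed level of 193 to 233 CPM. The 4 alpha-cell markers summed to 66.7 and 69.5 CPM in the controls and to 138 and 149 CPM in the manganese-adapted libraries. Most of the alpha-cell sum was SAG1, with means of 53.1 and 101 CPM. Neither set moved as one (limma adjusted p below 0.05). Of the alpha-cell markers 3 were called higher and MF(ALPHA)2 lower, and of the MATa markers 1 higher and 3 lower. Of all genes tested 68.5% were called. The 5 genes labelled as deleted were at 37.0 to 830 CPM, so reads were counted at these loci in every library. Such levels are at odds with whole-gene deletions, and the state of these alleles was not tested.

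In the R64 annotation each SNZ gene is paired head to head with the SNO gene of the same number, and the 6 genes are single protein-coding genes that overlap no other annotated gene. SNO1 (YMR095C, minus strand) lies at chrXIII:457285-457959 and SNZ1 (YMR096W, plus strand) at chrXIII:458408-459301, 448 bases apart and 457284 bases or more from the chromosome end. SNO2 (YNL334C, minus) lies at chrXIV:12208-12876 and SNZ2 (YNL333W, plus) at chrXIV:13267-14163, 390 bases apart. SNO3 (YFL060C, minus) lies at chrVI:10301-10969 and SNZ3 (YFL059W, plus) at chrVI:11363-12259, 393 bases apart. SNZ2, SNZ3, SNO2 and SNO3 are subtelomeric, at 10300 to 13266 bases from a chromosome end.

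The shared upstream regions are shown because each lies between the start codons of a divergent pair, and because the SNZ1 pair and the subtelomeric pairs changed by different amounts. Each sequence is the plus strand of R64 between the start codons of SNO and SNZ, without the 100 bases next to either start codon. In the SNO1-SNZ1 region, capitals mark TGACTC, the core of the site bound by Gcn4, the activator of amino acid synthesis genes. In the other regions capitals mark the bases at which the copies differ. The regions are chrXIII:458060-458307, chrXIV:12977-13166 and chrVI:11070-11262.
SNO1-SNZ1: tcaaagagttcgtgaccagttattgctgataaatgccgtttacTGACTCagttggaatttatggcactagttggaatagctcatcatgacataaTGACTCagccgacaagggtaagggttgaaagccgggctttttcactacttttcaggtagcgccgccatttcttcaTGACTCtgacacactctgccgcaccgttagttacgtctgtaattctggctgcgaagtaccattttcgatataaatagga
SNO2-SNZ2: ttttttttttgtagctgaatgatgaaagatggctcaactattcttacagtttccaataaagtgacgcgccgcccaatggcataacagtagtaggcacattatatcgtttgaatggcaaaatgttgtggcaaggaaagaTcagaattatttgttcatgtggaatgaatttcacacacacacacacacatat
SNO3-SNZ3: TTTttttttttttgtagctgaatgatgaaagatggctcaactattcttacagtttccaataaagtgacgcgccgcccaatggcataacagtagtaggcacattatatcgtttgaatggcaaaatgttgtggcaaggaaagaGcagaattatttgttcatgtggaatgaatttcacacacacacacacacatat

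The whole regions upstream of the subtelomeric pairs were 98.5% identical over 393 aligned columns. The SNO1-SNZ1 region was 46.1% and 45.1% identical to them in gapped alignments. Unrelated regions were not aligned for comparison, so these values are not read as conservation. TGACTC (searched on both strands) was found 3 times in the 350 bases before the SNZ1 start codon, beginning 305, 254 and 179 bases upstream. The same 3 matches lie before SNO1. Of 6020 windows of 350 bases before R64 coding genes, 8.97% held TGACTC at least once and 6 held it 3 times or more, of which SNZ1 and SNO1 account for 2. The longer TGACTCA, which contains TGACTC, was found 2 times in the SNZ1 window, and the same 2 matches lie before SNO1. Of all windows 6 held it 2 times or more, of which SNZ1 and SNO1 account for 2. Neither motif was found in the windows of SNZ2, SNZ3, SNO2 or SNO3. AGGGG, the core of the stress response element, is held by 25.8% of windows and was found before none of the 6 genes. These matches describe letters in a window, and binding was not measured.

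The coding sequences bear on how far reads can be assigned to one copy. SNZ2 and SNZ3 were 99.3% identical, with 6 differences over 897 bases, and SNO2 and SNO3 99.7% identical, with 2 differences over 669 bases. SNZ1 was 71.1% and 71.3% identical to SNZ2 and SNZ3, and SNO1 60.5% identical to either copy. The stretches below are shown because they hold most of the bases by which a read can be told to come from one subtelomeric copy, in capitals. Coding bases 741 to 810 of SNZ2 (chrXIV:14007-14076, plus strand) and SNZ3 (chrVI:12103-12172, plus strand) hold 4 of the 6 differences, and coding bases 271 to 330 of SNO2 (chrXIV:12547-12606, minus strand) and SNO3 (chrVI:10640-10699, minus strand) hold both.
SNZ2: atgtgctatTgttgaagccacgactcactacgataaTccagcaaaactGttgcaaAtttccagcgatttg
SNZ3: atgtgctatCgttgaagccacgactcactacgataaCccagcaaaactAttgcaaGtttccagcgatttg
SNO2: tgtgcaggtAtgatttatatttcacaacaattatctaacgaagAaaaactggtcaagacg
SNO3: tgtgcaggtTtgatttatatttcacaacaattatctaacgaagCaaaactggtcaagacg

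Every 50-base window of SNZ1 and SNO1 occurs once in the R64 genome. For SNZ2 and SNZ3 this holds for 194 of 848 windows (22.9%) and for SNO2 and SNO3 for 84 of 620 (13.5%). With windows of 100 bases the shares were 36.8% and 23.5%. The sources used here do not give the read length or the treatment of reads that map to several places. In the deposited table, 89 of the 93 coding genes with no unique 50-base window had no reads in any library, against 22 of 5506 genes in which every window is unique. The CPM of the 4 subtelomeric copies may therefore hold only part of their reads, and SNZ2 cannot be told apart from SNZ3, nor SNO2 from SNO3, over most of their length.

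SNZ1 was the member with the highest level and the largest rise, and SNO1 rose with it to a smaller extent. SNZ2 and SNZ3 rose less than 2-fold, and SNO2 and SNO3 did not pass the test. Of the 6 genes 4 were called higher (limma adjusted p below 0.05) and all 6 had positive fold changes, where 68.5% of all 6296 genes tested were called, 33.6% as higher and 34.9% as lower. A share of 4 in 6 is near the 68.5% called in either direction. It is above the 33.6% called higher, but these are 6 genes chosen with earlier results known. The share is therefore not read as a result, and the sizes carry the description. The members called at least 2-fold higher were SNZ1 and SNO1, against 8.28% of all genes tested. In bulk RNA, a change in every cell and a change in the share of cells expressing a gene cannot be told apart.

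**Figure D1:**
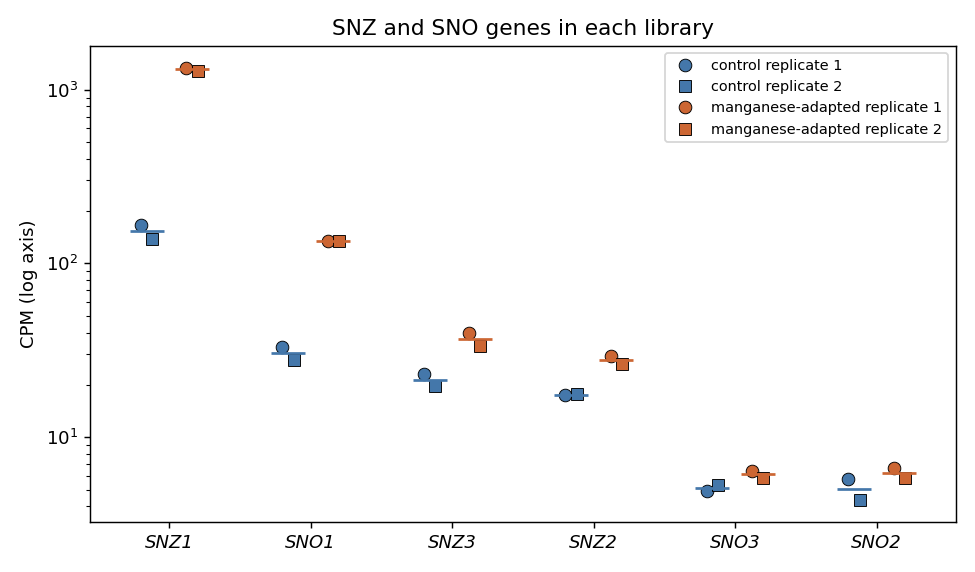
CPM of the 6 SNZ and SNO genes in each library on a log axis; blue is control, orange manganese-adapted, circles replicate 1, squares replicate 2, and lines the group means. SNZ1 rises from 167 and 139 CPM to 1339 and 1280 CPM, while SNO2 and SNO3 stay between 4.36 and 6.64 CPM.

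SNZ1, the synthase subunit of the first pair, was at 167 and 139 CPM in control replicates 1 and 2 and at 1339 and 1280 CPM in manganese-adapted replicates 1 and 2. The groups lay far apart, and the spread within each was small beside the gap. The group means were 153 ± 19.7 and 1310 ± 41.3 CPM (SD, n = 2), and their ratio was 8.56. In log2(CPM + 1), a scale that shrinks the changes of weakly expressed genes, the rise was 3.10 ± 0.11 (SE), the 16th largest of 6296 tested genes, with a limma adjusted p of 8.84e-09.

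SNO1, the glutaminase encoded head to head with SNZ1, was at 33.3 and 27.7 CPM in the controls and at 135.5 and 135.3 CPM in the manganese-adapted libraries. The manganese-adapted values were nearly equal and well above either control. The CPM ratio was 4.44, and the log2 fold change 2.12 ± 0.10 (SE), which ranked 69th (limma adjusted p 8.43e-08). The estimate was larger for SNZ1 than for SNO1, and the 95% intervals were 2.86 to 3.33 for SNZ1 and 1.89 to 2.35 for SNO1. The SNZ1 to SNO1 ratio of CPM per kb of coding length was 3.79 in each control and 7.46 and 7.14 in the manganese-adapted libraries. That ratio did not overlap between the groups. As a difference in log2(CPM + 1), SNZ1 exceeded SNO1 by 2.29 in both controls and by 3.30 and 3.23 in the manganese-adapted libraries. An exact two-sided permutation test of the 0.97 between the group means gave p = 0.333, the smallest that 2 against 2 samples allow.

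SNZ3, a subtelomeric synthase copy, was at 23.2 and 19.7 CPM in the controls and at 40.0 and 33.3 CPM in the manganese-adapted libraries. SNZ2, its near-identical copy, was at 17.4 and 17.7 CPM and at 29.4 and 26.3 CPM. For both copies the manganese-adapted values lay above the controls. The log2 fold change was 0.75 ± 0.13 (SE) for SNZ3 (limma adjusted p 0.000393) and 0.64 ± 0.11 (SE) for SNZ2 (limma adjusted p 0.000537). Their sum, which does not depend on how reads were split between them, went from 39.0 ± 2.33 to 64.5 ± 6.93 CPM (SD, n = 2), with a log2 fold change of 0.71 (limma adjusted p 0.00015).

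SNO2, a subtelomeric glutaminase copy, was at 5.73 and 4.36 CPM in the controls and at 6.64 and 5.84 CPM in the manganese-adapted libraries. SNO3, its near-identical copy, was at 4.88 and 5.33 CPM and at 6.42 and 5.84 CPM. These values rest on 58 to 90 reads a library. The groups did not overlap for either gene, but the gap between them was small. In all 6 members the lower manganese-adapted value was above the higher control value, as in 42.4% of all genes tested; the groups did not overlap in either direction for 85.7%. The log2 fold change was 0.27 for SNO2 (95% interval -0.12 to 0.65, limma adjusted p 0.191) and 0.22 for SNO3 (95% interval -0.13 to 0.57, limma adjusted p 0.228). Their sum was at 10.2 ± 0.66 and 12.4 ± 0.97 CPM (SD, n = 2), with a log2 fold change of 0.26 (limma adjusted p 0.108). With the trend of fold change over coding length removed, SNO2 and SNO3 passed, at 0.58 (limma adjusted p 0.00809) and 0.54 (limma adjusted p 0.00757).

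**Figure D2:**
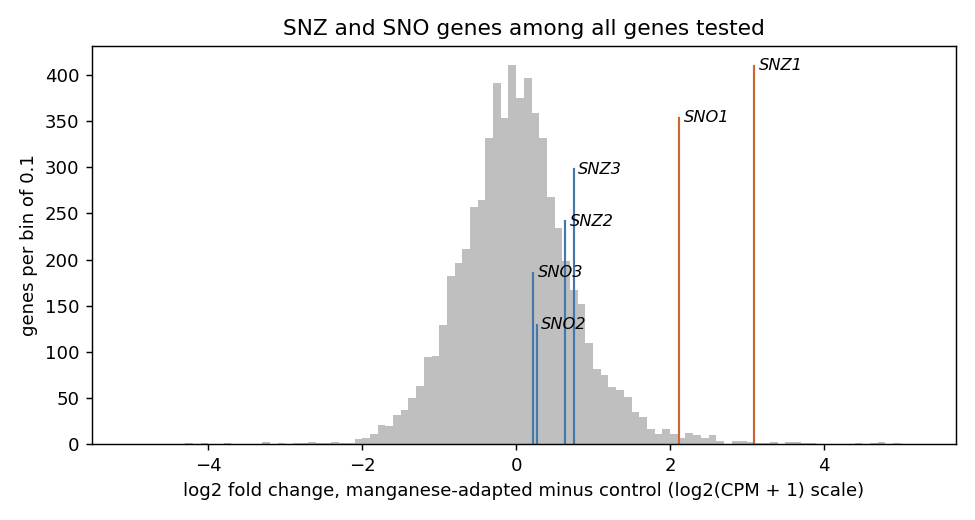
Histogram of the log2 fold change (manganese-adapted minus control, log2(CPM + 1) scale) of the 6296 genes tested, in bins of 0.1, with the 6 members as vertical lines (orange for the SNZ1 pair, blue for the subtelomeric copies; line heights only separate the labels). SNZ1 at 3.10 and SNO1 at 2.12 lie in the right tail, and the 4 copies, at 0.22 to 0.75, within the main body.

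The authors' deposited table gives log2 fold changes of 3.10 for SNZ1, 2.15 for SNO1, 0.77 for SNZ3, 0.67 for SNZ2, 0.30 for SNO2 and 0.26 for SNO3. The false discovery rate in the authors' deposited table is 5.38e-107 for SNZ1, 2.5e-05 for SNZ2, 0.27 for SNO2 and 0.342 for SNO3.

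The pairs were then compared within each library, which removes the library scaling. The mean log2(CPM + 1) of SNZ1 and SNO1 exceeded that of the 4 subtelomeric copies by 2.72 and 2.57 in the controls and by 4.71 and 4.85 in the manganese-adapted libraries. The difference therefore widened by 2.14 between group means, with SDs of 0.11 and 0.10 within the groups. It widened by 2.40 for SNZ1 over SNZ2 and SNZ3, and by 1.88 for SNO1 over SNO2 and SNO3. Each of these changes had p = 0.333 in the exact two-sided permutation test over samples, the smallest p possible here. Each was larger than the spread within either group.

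SNZ1 took a growing share of the SNZ reads. It held 80.4% and 78.8% of the CPM of the 3 SNZ genes in the controls and 95.1% and 95.6% in the manganese-adapted libraries. SNO1 held 75.8% and 74.1% of the SNO CPM in the controls and 91.2% and 92.1% in the manganese-adapted libraries. The 6 genes together went from 233 ± 26.7 to 1522 ± 49.3 CPM (SD, n = 2). The share values count the reads as deposited, so they hold the partial counting of the copies described above.

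Levels were compared between genes on 2 scales. On the scale of CPM per kb of coding length, SNZ1 was highest in the controls (171 ± 22.1), followed by SNO1 (45.2 ± 5.81; SD, n = 2). SNZ3 (23.9 ± 2.79) and SNZ2 (19.5 ± 0.19) came next. SNO3 (7.64 ± 0.48) and SNO2 (7.54 ± 1.45) were lowest and did not differ beyond their spread. In the manganese-adapted libraries SNZ1 (1465 ± 46.2) and SNO1 (201 ± 0.17) again led, before SNZ3 (40.9 ± 5.31) and SNZ2 (31.0 ± 2.42). SNO2 (9.33 ± 0.84) and SNO3 (9.16 ± 0.61) again lay within each other's spread.

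The second scale divides CPM by the number of unique 50-base windows, and would apply if only uniquely placed reads had been counted. On it, control SNO1 was at 48.7 ± 6.27 CPM per 1000 unique windows, below SNO2 at 60.1 ± 11.6 and SNO3 at 60.8 ± 3.78 (SD, n = 2). The values of SNO1 and SNO2 were 53.1 and 44.3 against 68.3 and 51.9, which overlap. In the manganese-adapted libraries SNO1 was at 216 ± 0.19, above SNO2 (74.3 ± 6.70) and SNO3 (73.0 ± 4.83). SNZ1 was above both copies in each group on this scale too, with 47.3% ± 1.74 of the SNZ level in control and 82.4% ± 1.10 in manganese-adapted libraries. With 100-base windows these SNZ1 shares were 59.1% ± 1.68 and 88.3% ± 0.79, and control SNO1 was 1.39 ± 0.09 times the mean of its copies, against 0.80 ± 0.05 times with 50-base windows. The rank of control SNO1 among the SNO genes thus depends on the scale. The within-gene fold changes do not, since the windows of a gene are the same in every library.

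**Figure D3:**
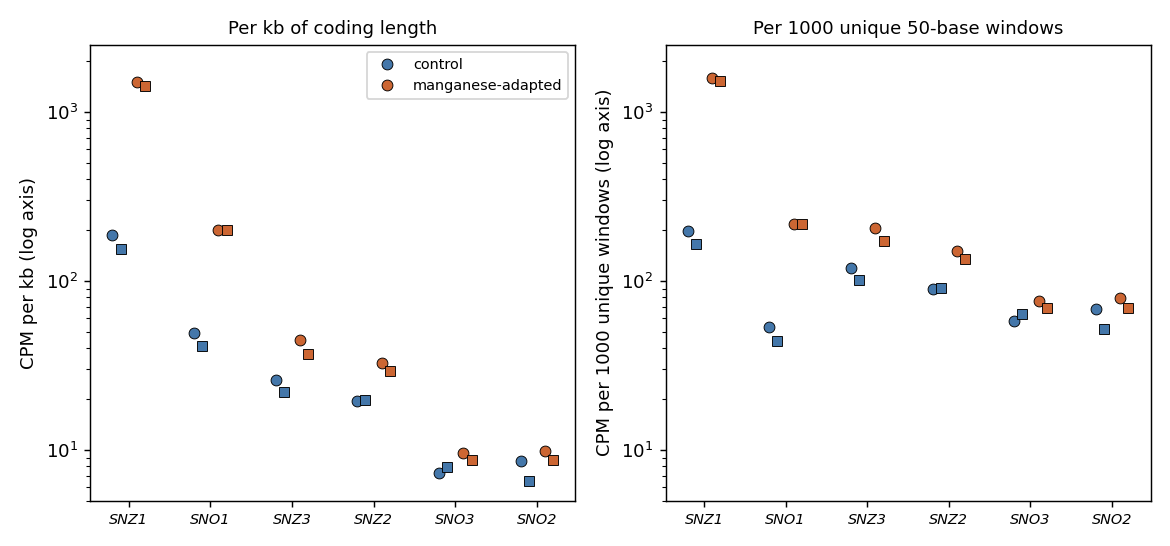
Levels of the 6 genes in each library on log axes, as CPM per kb of coding length (left) and as CPM per 1000 unique 50-base windows (right); blue is control, orange manganese-adapted, circles replicate 1 and squares replicate 2. Control SNO1 lies above SNO2 and SNO3 on the left (45.2 against 7.54 and 7.64) and not on the right (48.7 against 60.1 and 60.8), while SNZ1 is highest on both.

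The neighbours of the 3 loci were read from the same fit. Of 11 listed neighbours 8 rose and 3 did not pass, with a median log2 fold change of 1.18, against -0.01 over all genes tested, of which 33.6% were called higher. The 8 include DDI2 and DDI3, which met the filter only through the manganese-adapted libraries, so this count and median are only described. The list is uneven, since it reaches AGP3, 5641 bases from the SNZ3 start, and leaves out nearer genes. Within that distance of the 3 SNZ starts lie 17 annotated genes, of which 16 were tested. The same 8 rose, 5 fell and 3 did not pass, with a median of 0.36. The 5 that fell are the tested genes missing from the list: UTP15 (-0.71), AIP1 (-0.64), YMR099C (-0.51) and ATP25 (-0.36) around the SNZ1 pair, and RPD3 (-0.36) at the SNZ2 locus. This wider count was made, and these genes named, after their values were seen. Beside the SNZ1 pair, CTF13, a kinetochore protein gene that ends 23 bases from the end of SNO1, rose from 13.9 ± 0.40 to 34.1 ± 0.08 CPM (SD, n = 2), while MTG1, 122 bases beyond SNZ1, had a log2 fold change of 0.10 (limma adjusted p 0.349). Strand handling is not given, so reads past the end of SNO1 and reads of CTF13 may not be separable, and the part of this in the CTF13 value was not tested.

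Beside the subtelomeric pairs, THI12, which follows SNZ2, rose from 5.30 ± 1.01 to 19.8 ± 0.29 CPM, and THI5, which follows SNZ3, from 2.03 ± 0.33 to 8.11 ± 0.42 CPM (SD, n = 2). Their log2 fold changes of 1.73 and 1.59 were larger than those of the SNZ gene next to them. On the SNO side, the genes named DDI3 (YNL335W) and DDI2 (YFL061W) in the deposited table, which encode cyanamide hydratases, rose by 1.55 and 1.09 from 1.13 ± 0.21 and 1.05 ± 0.32 CPM. The R64 table gives these names the other way round, and the coding regions have 7.95% unique 50-base windows. In control replicate 2 DDI3 (0.98 CPM) and DDI2 (0.83 CPM) were below 1 CPM. Both thus met the filter of 1 CPM in 2 samples only through the manganese-adapted libraries, where they are high. Their rises, counted among the 8 listed neighbours that rose, are therefore only described. Farther out, COS4 (1.18), AGP3 (1.37) and AAD14 (0.48) rose, and COS1 (-0.04) and AAD6 (0.24) did not pass. COS4 and COS1 have 27.7% and 28.9% unique 50-base windows, so their values may hold only part of their reads. AAD6 passed under 2 of the alternatives, a pseudocount of 10 (limma adjusted p 0.0476) and removal of the trend with coding length (limma adjusted p 0.0276). At each subtelomeric locus the SNO gene, which did not pass in the main fit, lay between an SNZ gene called higher and a DDI gene. As the DDI calls depend on the filter, they are not read as a pattern along the locus. The limma intervals of SNO2 (-0.12 to 0.65) and SNZ2 (0.38 to 0.89) overlapped. Those of SNO3 (-0.13 to 0.57) and SNZ3 (0.46 to 1.03) overlapped too, and both SNO genes passed with the coding length trend removed. Whether either SNO gene changed less than the genes beside it was not tested.

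Among 6 other vitamin B6 genes 3 fell and 3 did not pass in limma, and their median log2 fold change was -0.14. Of all genes tested 34.9% were called lower and 68.5% in either direction, so a count of 3 in 6 is no result about these genes. None was called higher by limma, edgeR or DESeq2, and 0 were higher at an unadjusted limma p below 0.05. PDX3, the oxidase that converts pyridoxine and pyridoxamine phosphates to pyridoxal phosphate, fell from 241 ± 2.66 to 173 ± 1.66 CPM (SD, n = 2; log2 fold change -0.47). BUD16, a putative pyridoxal kinase, fell by 0.33 on the log2 scale, and YBL036C, a homologue of pyridoxal phosphate binding proteins, by 1.14. With the coding length trend removed PDX3 (-0.17, limma adjusted p 0.0975) and BUD16 (-0.17, limma adjusted p 0.145) did not pass, and BUD16 was also lost without manganese-adapted replicate 1 (limma adjusted p 0.102).

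TPN1, the plasma membrane transporter of pyridoxine, was at 174 ± 15.2 and 199 ± 0.96 CPM (SD, n = 2; log2 fold change 0.20, limma adjusted p 0.0706), and passed without control replicate 1 (0.29, limma adjusted p 0.00899). BUD17, a paralog of BUD16, had a log2 fold change of 0.08 and YPR127W, a putative pyridoxine dehydrogenase, of 0.04, and neither passed.

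Of 18 thiamine genes 11 rose, 1 fell and 6 did not pass, where 33.6% of all genes tested were called higher and 34.9% lower. The median log2 fold change of the list was 0.71, against -0.01 over all genes. THI4, which makes the thiazole part of thiamine, rose from 7.22 ± 0.20 to 31.6 ± 0.75 CPM (SD, n = 2; log2 fold change 1.99). Besides THI12 and THI5, the transporter genes THI72 (1.51) and THI7 (1.19) and the putative transporter gene THI73 (0.93) rose. The kinase genes THI21 (1.22) and THI20 (0.57), the phosphatase gene PHO3 (1.22), and the regulators THI2 (0.85) and THI3 (0.42) rose too. THI80, the thiamine pyrophosphokinase, fell by 0.94 on the log2 scale.

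THI11 (0.22) and THI13 (0.26), the THI5 family members that lie away from SNZ genes, did not pass, nor did THI22 (0.25), THI6 (-0.01), the regulator PDC2 (-0.04) and PET18 (-0.30). The 4 THI5 family genes had 15.0% to 40.0% unique 50-base windows, so their values share the uncertainty of SNZ2 and SNZ3. With the coding length trend removed THI13 passed (0.36, limma adjusted p 0.0435), PDC2 passed as lower (-0.32, limma adjusted p 0.011) and THI3 was lost (limma adjusted p 0.0747). THI22 passed without control replicate 2 (limma adjusted p 0.033), and PET18 as lower without control replicate 2 (limma adjusted p 0.046), without manganese-adapted replicate 2 (0.033) and with the crossed pairing as a block (0.0301).

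**Figure D4:**
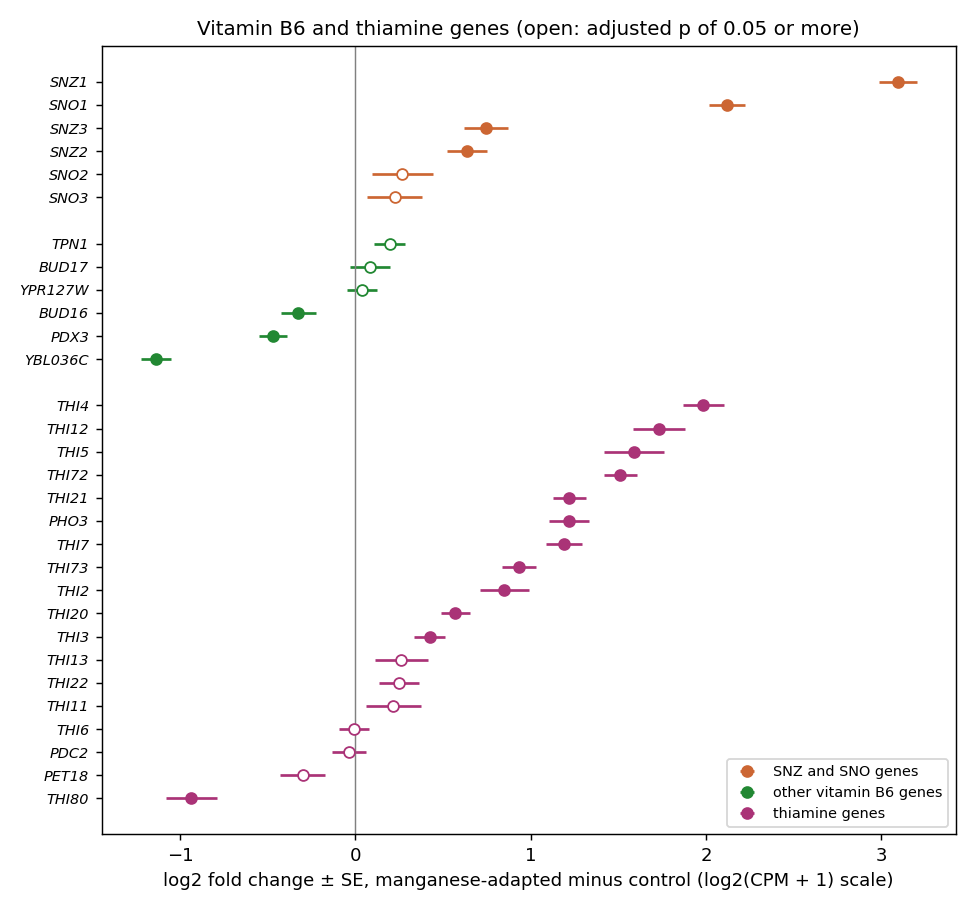
Log2 fold change with its SE (limma, manganese-adapted minus control, log2(CPM + 1) scale) of the SNZ and SNO genes, other vitamin B6 genes and thiamine genes; filled points have an adjusted p below 0.05 and open points do not. SNZ1 (3.10) and SNO1 (2.12) lie above THI4 (1.99), the highest thiamine gene, and no other vitamin B6 gene has a filled point above 0. SNO1 and THI4 were nearly equal by edgeR (2.15 and 2.13) and DESeq2 (2.16 and 2.13) on recovered reads.

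Of 40 enzymes that use pyridoxal phosphate 13 rose, 12 fell and 15 missed the threshold, with a median log2 fold change of -0.03. These shares are near the 33.6% called higher and 34.9% called lower among all genes tested, so the counts show nothing particular to the enzymes. The largest rises were ALT2 (1.61), GCV2 (1.54), which encodes glycine decarboxylase, ARO9 (1.32) and CAR2 (1.23), an ornithine transaminase gene. The largest falls were CYS3 (-1.36), MET17 (-1.27), both of sulfur amino acid synthesis, GPH1 (-0.88), glycogen phosphorylase, and BNA3 (-0.67).

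Because TGACTC stands before SNZ1 and SNO1, GCN4 and a list of its textbook targets were read too. GCN4 itself had means of 1569 ± 9.93 (control) and 1364 ± 19.4 CPM (adapted; SD, n = 2; log2 fold change -0.20, limma adjusted p 0.179). Gcn4 is controlled mainly by translation, which these libraries do not measure. Of the 22 genes of the list, GCN4 included, 8 rose, 6 fell and 8 did not pass, with a median of 0.04, and these shares too are near the 33.6% and 34.9% over all genes. Without manganese-adapted replicate 2 the list held 7 higher and 3 lower. ARG4 (1.31), CPA1 (0.70), ILV2 (0.69) and ARG1 (0.67) rose most, each less than SNZ1 or SNO1, and HIS1 (-0.91), ADE4 (-0.53), TRP2 (-0.45) and HIS4 (-0.43) fell most. HIS4 was among those lost without that replicate (limma adjusted p 0.0709).

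The genes nearest to SNZ1 over the 4 libraries, by root mean square distance of log2(CPM + 1) after subtracting each gene's control mean, were YDL218W (distance 0.11), HXT13 (0.12) and DAN1 (0.12). Those nearest to SNO1 were YOR338W (0.06), TIR1 (0.06) and GYP7 (0.06). These genes were picked as the smallest distances among all genes tested, so being closer than the pair partner says nothing about the pair. SNZ1 and SNO1 were 0.69 apart from each other. Most of this distance reflects the group difference, since only 2 groups were measured.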

How the data were processed

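The authors deposited 1 table with a value per feature for each of 4 libraries. Its columns are headed as counts, but the deposited values are CPM: 100% of them came to whole reads, to within 0.001, when divided by the value of 1 read, so reads were recovered. It also holds the p-value, the false discovery rate and the log2 fold change of the authors. The tools named per the submitters' processing notes are TopHat2 2.0.13, cutadapt 1.8.1, HTSeq, Bowtie and edgeR, and the build is sacCer3; the sources used here give no role, strand setting or counting mode. R64, the reference used for names, coordinates and sequence, is the same assembly.

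Limma 3.58.1 (R 4.3.3, trend, no covariate) was fitted to log2(CPM + 1) of 6296 features that reached 1 CPM in at least 2 samples, with Benjamini-Hochberg adjustment over all of them at 0.05. All 6 SNZ and SNO genes passed this filter. The fit was also run on simulated reads in which only a small part of the features changed. Most genes tested here were called, so that run does not show how the fit behaves on these data. Groups follow the adaptation status in the labels. The members and gene lists were chosen with earlier results of these data known. Named genes are the members, all genes of the vitamin B6, thiamine and neighbour lists, up to 4 per direction with the largest change in the other lists, and the 3 nearest to SNZ1 and to SNO1. Alternatives were other pseudocounts, filters and scalings, each sample left out, a replicate block, edgeR 4.0.16 and DESeq2 1.42.0 on recovered reads, and removal of a coding length trend. Identities come from global alignment in Biopython 1.88 (match 1, mismatch -1, gap opening -3, gap extension -0.5), and unique windows from all windows of both strands of R64.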

Additional observations from a re-analysis of the deposited data

How the results depend on the processing

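SNZ1, SNO1, SNZ2 and SNZ3 were called higher under all 15 alternatives run, with log2 fold changes of 2.96 to 3.28, 1.85 to 2.43, 0.46 to 0.82 and 0.57 to 0.93. SNO2 and SNO3 could be fitted in 14 each, since a minimum of 10 CPM removes them. They ran from 0.10 to 0.58 and from 0.09 to 0.54, and passed only with the coding length trend removed, where all 6 members were called. That setting subtracts the smoothed change of genes of similar coding length, so it shifts genes of equal length equally. At the lengths of the members this change was negative, so all 6 estimates moved up, SNO2 from 0.27 to 0.58 and SNO3 from 0.22 to 0.54. The cause of the trend was not tested. Over single samples left out, SNO2 ran from 0.10 to 0.43 and SNO3 from 0.16 to 0.28. The widening of SNZ1 and SNO1 over the copies ran from 2.06 to 2.22 over samples left out. The count of other vitamin B6 genes called went from 3 to 1 with the coding length trend removed. There PDX3 moved from -0.47 to -0.17 and BUD16 from -0.33 to -0.17. The count of neighbours called went from 8 to 5 with a minimum of 10 CPM, where 8 were tested, and to 13 (8 higher, 5 lower) with every gene within 5641 bases, added after seeing the data. Over all genes, 4313 were called, 4314 by edgeR, 3918 by DESeq2 and 3378 to 4283 over samples left out. Deviations of same-numbered samples correlated at -0.18 across genes, so the numbers were not taken to pair samples. With a replicate block 4196 genes were called, and with the crossed pairing, added after seeing the data, 4426; both left the count of members called at 4. The summed copies were also added after seeing the data. The 58 to 90 reads of SNO2 and SNO3 limit what can be detected there.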
